A study of Homo sapiens with 12 samples.

Results

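The m6A peaks of CAL33 cells grown with rapamycin were compared with those of untreated CAL33 cells. The peaks were all entries of both CAL33 peak lists, 3625 from the control and 3079 from the rapamycin cells, which together make 6704 of the 14586 peaks over the 4 lists of the series. A peak was called kept when its exonic blocks shared at least 1 bp with a peak of the other list on the same strand, and unmatched otherwise. CAL33 is an established human cell line of oral squamous cell carcinoma (OSCC). The treated cells received 100 nM rapamycin, an inhibitor of mTOR complex 1 that induces autophagy, for 3 days, and the control cells received none. HSC3, a different OSCC line, was handled in the same way. For each line and treatment, 1 library of RNA pulled down with an antibody against m6A and 1 library of its input RNA were sequenced, so 4 libraries stand behind the CAL33 lists. No value has a replicate within CAL33 and no test between treatments was possible. Intervals of shares are 95% Wilson intervals and cover counting error only.

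N6-methyladenosine is placed on adenosines of nuclear RNA by a complex built around METTL3 and METTL14, is removed by FTO and ALKBH5, and is bound by reader proteins such as the YTH family, through which it can alter splicing, translation and decay. It is found mostly in long internal exons and around stop codons, within short motifs that commonly hold GGAC. In MeRIP-seq, RNA is fragmented before the pull-down, so a peak marks a stretch of transcript enriched over the input and not a single adenosine.

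Before the values are read, some properties of the lists are needed. The median peak was 211 bp long in the control list and 210 bp in the rapamycin list. Median fold enrichment, the ratio of pulled-down RNA to input, was 42.6 in the control and 35.9 in the rapamycin list. Read counts under each peak were not used here, and their depth is unknown. In the control list 1432 peaks (39.5%) had a fold enrichment and a p-value that were identical, to the digits deposited, to those of at least 4 other peaks, and in the rapamycin list 1370 (44.5%) did. The largest such sets held 94 control peaks and 80 rapamycin peaks. A further 179 control and 173 rapamycin peaks overlapped a peak that the same list gave to a gene on the opposite strand, and whether strand was used in calling the peaks is not given in the sources used here. Peaks of overlapping genes are therefore uncertain as to their gene.

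RNA-seq counts of 4 libraries were used to give the mRNA level of each gene, with between 18492273 and 23763098 counts per library. In MeRIP-seq the number 2 in a sample's title marks CAL33, and the rapamycin and control RNA-seq libraries numbered 2 were used here. How long the cells of the rapamycin RNA-seq libraries were treated is not given in the sources used here. Their mRNA levels may thus be of another time than the peaks. The labels of the RNA-seq libraries instead call both rapamycin libraries HSC3 and both control libraries CAL33, so their cell line is uncertain. Across 14133 genes with a mean of at least 1 CPM (counts divided by the library total and scaled to CPM), log2 CPM of the libraries numbered 2 correlated with each other at r = 0.95, and with those numbered 1 at between 0.78 and 0.84. The libraries numbered 1 correlated with each other at r = 0.96, so libraries paired by number rather than by label. Squamous genes were expressed in both libraries numbered 2. TP63, a master transcription factor of squamous epithelium, stood at 331 CPM in the control and 343 CPM in the rapamycin library, and KRT17, a keratin of stressed and basal epithelium, at 1341 and 2059 CPM. KRT5 stood at 1696 and 317 CPM, KRT6A at 372 and 5.22 CPM and KRT14 at 9.30 and 1.23 CPM, all lower with rapamycin. The other squamous markers, the adhesion genes CDH1, EPCAM and DSG3, stood between 85.4 and 215 CPM. COL1A2, COL3A1, DCN and PTPRC, markers of fibroblasts and leukocytes, were at 0 counts in both. COL1A1 was present at 8.75 and 27.6 CPM. Among endothelial markers, CDH5 stood at 25.5 and 40.4 CPM, VWF at 4.33 and 1.92 CPM and PECAM1 at 0.80 and 1.81 CPM. Of the squamous markers, CDH1 and DSG3 carried 1 control peak each, and TP63, EPCAM and the keratins KRT5, KRT6A, KRT14 and KRT17 carried none. Of the markers of other cells, COL1A2, LYZ and PECAM1 carried 1 control peak each, CDH5 carried 1 rapamycin peak, and COL1A1 carried 5 in each list.

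Most peaks were found in only 1 of the lists. Of the 3079 rapamycin peaks, 2159 had no control counterpart (70.1%) and 920 were kept (29.9%, 28.3 to 31.5). Of the 3625 control peaks, 2716 had no rapamycin counterpart (74.9%) and 909 were kept (25.1%, 23.7 to 26.5). Kept peaks were longer than unmatched ones, at a median of 241 against 210 bp in the control list and 240 against 210 bp in the rapamycin list. Kept peaks also had stronger p-values, with a median log10 p-value of -40.7 against -20.9 in the control list and -27.45 against -14.5 in the rapamycin list. Their fold enrichment was not higher, with medians of 42.6 against 43.7 and of 34.8 against 36.2.

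The overlap rule left few near misses. Of the control-only peaks, 95 lay within 100 bp of a rapamycin peak of the same strand and 475 (17.5%) within 1000 bp. Of the rapamycin-only peaks, 88 lay within 100 bp of a control peak and 413 (19.1%) within 1000 bp. At the inner side of the rule, 764 of 883 pairs formed by taking each kept peak once overlapped by at least 50% of the shorter peak, and in 419 pairs the shorter peak lay wholly inside the longer one.

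Peaks on abundant transcripts were kept more often. When control peaks were divided into quartiles by the mean CPM of their gene in the libraries numbered 2, 18.1% (15.7 to 20.7) of the lowest quartile, with a median of 6.86 CPM, were kept, against 33.4% (30.4 to 36.6) of the highest, with a median of 200 CPM. The corresponding shares of rapamycin peaks were 18.8% (16.2 to 21.7) and 39.9% (36.5 to 43.4). Median fold enrichment ran the other way, from 68.1 in the lowest to 24.05 in the highest quartile of control peaks, and from 52.9 to 22 for rapamycin peaks. Peaks with repeated fold and p-values were kept in 13.5% (11.9 to 15.4) of cases in the control list and 16.9% (15 to 18.9) in the rapamycin list, against 32.6% (30.7 to 34.6) and 40.3% (38.0 to 42.7) of the remaining peaks. The mRNA level and the repeated values were not separated from treatment, and their part in the unmatched share was not tested. Genes with 0 counts in both libraries numbered 2 held a similar share of kept and unmatched peaks. They held 83 control-only peaks (3.06%) and 25 kept control peaks (2.75%), and 70 rapamycin-only peaks (3.24%) and 24 kept rapamycin peaks (2.61%). Genes under 1 CPM held 7.0% of control-only and 5.28% of kept control peaks. For rapamycin-only and kept rapamycin peaks these shares were 8.06% and 5.0%.

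**Figure D1:**
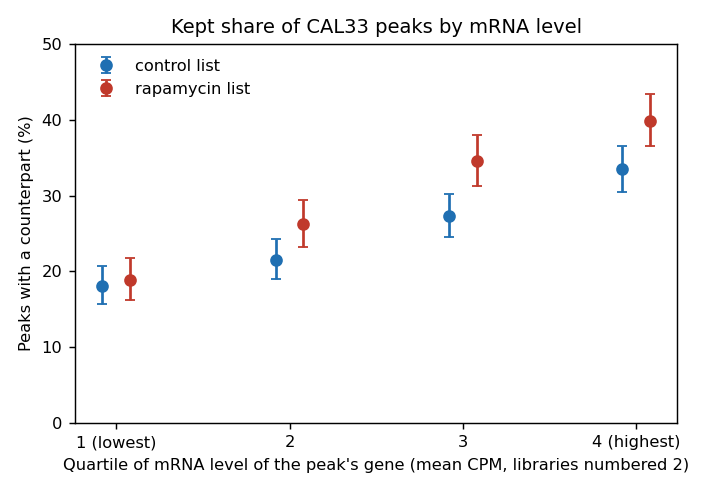
Share of CAL33 peaks with a counterpart in the other list (y axis, percent) in quartiles of the mRNA level of the peak's gene (x axis). Points are shares with 95% Wilson intervals, blue for the control list and red for the rapamycin list. The share rises from 18.1% to 33.4% in the control and from 18.8% to 39.9% in the rapamycin list.

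The kept and the unmatched peaks lay in similar parts of the transcript, by the annotation that the authors gave each peak. Coding sequence held 43.8% (40.6 to 47.0) of the kept control peaks, 42.3% (40.4 to 44.1) of the control-only peaks and 39.9% (37.9 to 42.0) of the rapamycin-only peaks. The 3′UTR held 34.7% (31.6 to 37.8), 37.8% (36 to 39.7) and 38.0% (36 to 40.05) of them. The 5′UTR held 2.97% (2.05 to 4.29) of the kept control peaks, 2.98% (2.41 to 3.69) of the control-only and 4.21% (3.45 to 5.15) of the rapamycin-only peaks. Peaks annotated only as exon made up 18.6% (16.2 to 21.3), 16.8% (15.5 to 18.3) and 17.7% (16.1 to 19.4). All of these intervals overlapped between the classes.

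Peaks at the very start of a transcript were mostly unmatched. RefSeq start sites on GRCh38.p14, a patch release of the assembly hg38, were used to find peaks that overlap the first 50 transcribed bases of a gene. There were 40 such peaks in the control list, of which 4 were kept (interval 3.96 to 23.1%), against 25.2% (23.8 to 26.7) of all other control peaks. There were 39 in the rapamycin list, of which 4 were kept (10.3%, 4.06 to 23.6), against 30.1% (28.5 to 31.8) of all other rapamycin peaks. GGAC, the core of the common m6A motif, was searched on the transcribed strand of these 50 bases. It was present for 10 of the 40 control peaks and 9 of the 39 rapamycin peaks, and in 18.9% of the 35116 start sites of the RefSeq table. Some start-site peaks are entries of nearly the same bases under different genes, as ZC3H11A and ZBED6 are among the kept peaks of both lists. The counts and intervals take such entries as separate peaks. The sequence inside most peaks was not used here, because it lies outside the promoter sequences at hand.

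The start-site windows below show a kept peak beside peaks found in 1 list only, each as 30 bases around the GGAC that the peak covers, with GGAC in capitals. They were chosen among peaks whose gene has the same symbol in the peak list and in RefSeq, as the kept peak with a covered GGAC and the unmatched ones of each list with the highest fold enrichment. This leaves out LINC01137, which RefSeq names LITATS1, with a rapamycin-only peak of 549-fold.
RNF217-AS1 (chr6:124962996-124963025, minus strand, kept): gtctcttggcgagGGACgggcgccgctgac
SLC47A2 (chr17:19716537-19716566, minus strand, control only): cccggccaggaatGGACagcctccaggaca
RCC1L (chr7:75073785-75073814, minus strand, control only): cctcttccggcgaGGACtggtgttaagggt
PPP1R3D (chr20:59940269-59940298, minus strand, rapamycin only): taagtaacgccgcGGACcgggaaagtggga
ZNF503 (chr10:75401736-75401765, minus strand, rapamycin only): cagagccccggctGGACacgcagcggctcg

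The noncoding antisense transcript RNF217-AS1 had a fold enrichment of 42.6 in the control and 102 in the rapamycin list over the same bases. The control-only peaks stood at 413 for SLC47A2, a proton-coupled exporter of organic cations, and at 277 for RCC1L, a mitochondrial protein of the RCC1 family. The rapamycin-only peaks stood at 493 for PPP1R3D, a glycogen-targeting subunit of protein phosphatase 1, and at 158 for ZNF503, a zinc finger repressor.

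The genes of the lists overlapped more than the peaks did. Peaks were assigned to 2720 genes in the control and 2401 in the rapamycin list, and 1167 genes were in both. Of these, 783 had a kept peak, and 384 had peaks in both lists but none that overlapped. A peak was listed only in the control for 1553 genes and only with rapamycin for 1234 genes. Of the control-only peaks 899 (33.1%), and of the rapamycin-only peaks 769 (35.6%), fell on a gene that had a peak elsewhere in the other list.

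The unmatched peaks with the smallest p-values were read gene by gene. Among the rapamycin-only peaks the first was PELI1 (ENSG00000197329), a Pellino E3 ubiquitin ligase of Toll-like receptor signalling. Its peak (chr2:64094953-64095252, minus strand, hg38, exon) had a fold enrichment of 474, percentile 98.7 of its list, and a log10 p-value of -766. The gene had no control peak, and its mRNA stood at 15.1 CPM in the control and 25.4 CPM in the rapamycin library. GABPB1, a subunit of the ETS-family factor GABP, had a rapamycin-only peak of 555-fold, and PCNX1, the human pecanex homologue, one of 666-fold within its coding sequence. The mRNA of GABPB1 stood at 32.3 and 26.6 CPM and that of PCNX1 at 113 and 121 CPM, so both were present in the control as well. The PELI1 and PCNX1 peaks overlapped a peak in both HSC3 lists, and the GABPB1 peak one in the HSC3 rapamycin list only.

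ETV6, a transcriptional repressor of the ETS family, had a rapamycin-only 3′UTR peak of 1330-fold, percentile 99.97, and its mRNA stood at 37.7 CPM in the control and 76.1 CPM in the rapamycin library. SLC38A2, a sodium-coupled neutral amino acid transporter that responds to amino acid supply, had one of 286-fold in its 3′UTR (chr12:46360907-46361176, minus strand), at 416 and 384 CPM. FBXO11, an F-box protein, and MSH6, a DNA mismatch repair protein, were given rapamycin-only 3′UTR peaks of 153-fold and 145-fold. These cover the same stretch of chromosome 2 on opposite strands (47807826 to 47808096 and 47807825 to 47808094), so they cannot be told apart as signals of 1 gene or the other. MSH6 mRNA stood at 205 and 96.7 CPM, and FBXO11 mRNA at 54.9 and 53.2 CPM. The FBXO11 and MSH6 peaks overlapped a peak of the HSC3 control list only, and the ETV6 and SLC38A2 peaks one of neither HSC3 list.

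CX3CL1, the membrane-bound chemokine fractalkine, carried leading peaks of both unmatched classes. In the control, a 3′UTR peak (chr16:57384749-57385018, plus strand) had a fold enrichment of 98.8 and a log10 p-value of -747, and no rapamycin peak overlapped it. With rapamycin, a coding sequence peak (chr16:57382207-57382655) had a fold enrichment of 35.9 and a log10 p-value of -462, and lay 149 bp from the nearest control peak. CX3CL1 mRNA stood at 227 CPM in the control and 905 CPM in the rapamycin library. Neither of these peaks overlapped a peak of an HSC3 list.

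The control-only peaks were led by AMOTL1, an angiomotin-family protein that binds YAP, with a 3′UTR peak (chr11:94870733-94871092, plus strand) of 44.5-fold and a log10 p-value of -3860. AMOTL1 mRNA stood at 151 CPM in the control and 125 CPM in the rapamycin library, and no HSC3 list held this peak. SQLE, which catalyses an early oxygenation step of sterol synthesis, had a control-only 5′UTR peak of 204-fold with a log10 p-value of -2360. SQLE mRNA stood at 151 CPM in the control and 34.7 CPM in the rapamycin library, and the peak was present in both HSC3 lists. MT-CO2, a mitochondrially encoded subunit of cytochrome c oxidase, was listed at a fold enrichment of 2.18, percentile 1.30, with a log10 p-value of -1440 on a transcript of 8200 and 6477 CPM. A very small p-value therefore did not require a high fold enrichment.

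MCL1, an antiapoptotic member of the BCL2 family, had a control-only 3′UTR peak of 321-fold with a log10 p-value of -1210. Its rapamycin peaks lay in the coding sequence, 871 bp or more away, at 19.6-fold and 4.47-fold, and its mRNA stood at 306 and 330 CPM. PHIP, a bromodomain protein of a ubiquitin ligase, had a control-only peak of 32.9-fold, and a rapamycin peak lay 59 bp away. FBXO45, an F-box protein, had a control-only peak of 266-fold in its coding sequence, with mRNA at 63.9 and 32.0 CPM. UBE3A, an E3 ubiquitin ligase, had one of 97.4-fold, with mRNA at 90.3 and 67.3 CPM. None of the 16 leading unmatched peaks shared its fold enrichment and p-value with another peak of its list.

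For the kept peaks, fold enrichment was compared by percentile within each list, since the scale of each pair of libraries differs. The median log2 ratio of rapamycin to control fold enrichment over the 883 pairs was -0.49, with quartiles of -2.03 and 1.33. The median percentile change was -2.08 points, with quartiles of -24.8 and 25.2. A rise of at least 25 points was found for 223 pairs (25.3%) and a fall of at least 25 points for 220 (24.9%). Changes of less than 10 points were found for 223 pairs and changes of at least 50 points for 181 (20.5%). The pairs were also divided into quartiles by the weaker of their 2 p-values. The p-value and fold enrichment of a peak come from the same libraries. This split is therefore not independent of the rank changes set beside it. Changes of at least 25 points in either direction were found for 88 of 221 pairs (39.8%) in the strongest quartile. In the weakest quartile they were found for 152 of 221 (68.8%). Spearman's rho of fold enrichment between the lists was 0.23 over the 883 pairs, which share their libraries. Between the HSC3 lists it was 0.23 over 1081 pairs. Between the lines it was 0.30 for control with control, 0.19 for rapamycin with rapamycin, 0.25 for CAL33 control with HSC3 rapamycin and 0.27 for CAL33 rapamycin with HSC3 control. Over all pairs, the kept CAL33 peaks thus lay within the range of the other pairs of lists. Within CAL33, rho was 0.47 in the quartile with the strongest p-values and -0.28 in the weakest, with the same limit on the split.

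By region, the median change was -2.22 points over 382 coding sequence pairs, -3.01 over 309 3′UTR pairs, -0.66 over 26 5′UTR pairs and -1.04 over 166 exon pairs.

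**Figure D2:**
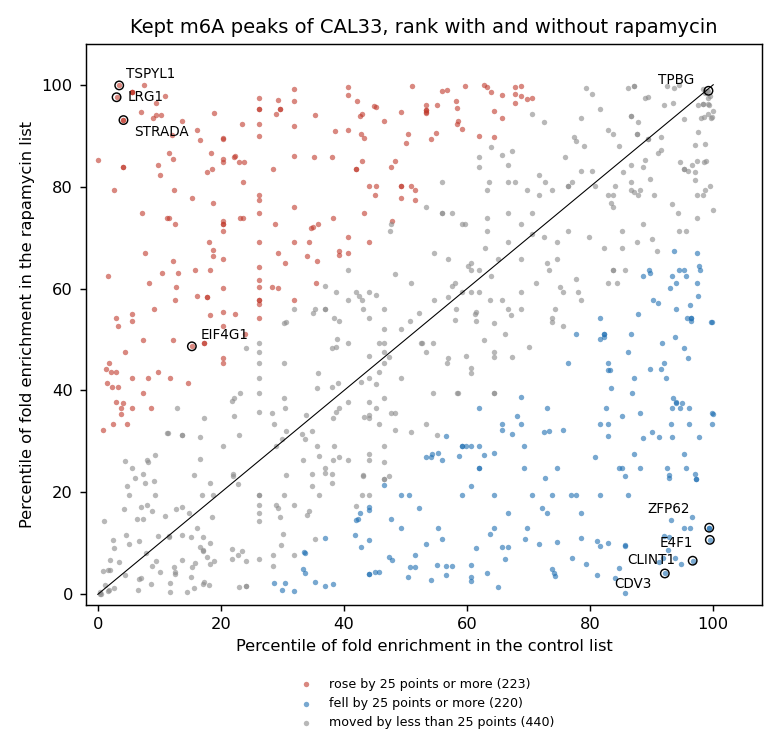
Percentile of fold enrichment in the control list (x axis) and the rapamycin list (y axis) for the 883 kept pairs of CAL33 peaks, 1 point a pair. Red pairs rose by at least 25 percentage points (223), blue pairs fell by as much (220) and grey pairs moved less (440). The line marks equal rank, circles mark pairs described in the text, and vertical stripes are control peaks with the same fold enrichment.

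The kept pairs with the largest rises went from near the bottom of the control list to near the top of the rapamycin list. TSPYL1, a nucleosome assembly protein of the TSPY family, rose from 3.33-fold (percentile 3.48) to 983-fold (percentile 99.9) at a 3′UTR peak (control peak chr6:116277926-116278106, minus strand). TSPYL1 mRNA stood at 92.8 CPM in the control and 59.4 CPM in the rapamycin library. LRG1, a secreted leucine-rich glycoprotein, rose from 3.07-fold to 354-fold in its coding sequence, while its mRNA stood at 31.1 and 103 CPM. TMEM60, a transmembrane protein, rose from 5.32-fold to 1290-fold at 6.94 and 10.02 CPM. STRADA, the pseudokinase partner of LKB1, and the overlapping entry AC046185.1 had nearly the same peak, which rose from 3.65-fold to 199-fold. AC046185.1 was at 0 counts in both libraries numbered 2. CCM2, a scaffold protein of cerebral cavernous malformation, rose from 5.11-fold to 233-fold at 62.5 and 57.0 CPM. Of the 6 control entries, 5 had a log10 p-value between -2.75 and -4.22, and TSPYL1 had one of -7.93, so they were weak calls in the control list.

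The largest falls started from strong control peaks. CLINT1, a clathrin-binding protein of vesicle transport, fell from 463-fold (percentile 96.7) to 4.78-fold (percentile 6.59) at a coding sequence peak (control peak chr5:157787566-157787985, minus strand). Its mRNA stood at 150 CPM in the control and 251 CPM in the rapamycin library. E4F1, a transcription factor with ubiquitin ligase activity, fell from 1100-fold to 6.89-fold, and its mRNA stood at 54.1 and 33.9 CPM. AUTS2, a component of a noncanonical Polycomb complex, fell from 362-fold to 4.59-fold at 67.1 and 54.6 CPM. CDV3 fell from 282-fold to 3.67-fold at 238 and 171 CPM. DTX2, a Deltex E3 ligase of Notch signalling, fell from 330-fold to 5.09-fold at 51.8 and 156 CPM. ZFP62, a zinc finger protein, fell from 1030-fold to 8.04-fold at 25.3 and 29.5 CPM. As with the rises, the low side was often a weak call, since AUTS2, ZFP62, DTX2 and E4F1 had rapamycin log10 p-values between -3.62 and -6.46, against -43.5 for CLINT1 and -17.0 for CDV3.

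Other kept peaks stayed near the top of both lists. TPBG, the oncofetal glycoprotein 5T4, stood at 915-fold in the control (percentile 99.2) and 493-fold with rapamycin (percentile 98.8). CREB1, the cAMP-responsive transcription factor, stood at 815-fold and 491-fold in its 3′UTR, with log10 p-values of -1850 and -1070. CHD9, a chromatin remodeller, stood at 728-fold and 450-fold. COL1A1, the alpha 1 chain of type I collagen, stood at 651-fold and 598-fold in its 3′UTR. Their mRNA did not have to be abundant, with COL1A1 at 8.75 and 27.6 CPM and CREB1 at 40.6 and 31.3 CPM. For EIF4G1, the scaffold of the cap-binding complex that the study followed, the coding sequence peak (control peak chr3:184321614-184321853, plus strand) went from 9.63-fold (percentile 15.3) to 33.9-fold (percentile 48.7). EIF4G1 mRNA stood at 2024 CPM in the control and 990 CPM in the rapamycin library.

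The strongest kept peaks by p-value were looked at after their values were seen. MALAT1, a nuclear noncoding RNA long known to carry m6A, was listed with overlapping peaks of 24.7-fold and 22.8-fold in the control and 24.3-fold and 20.4-fold with rapamycin. SLC7A5, the large neutral amino acid transporter LAT1, had a 3′UTR peak that went from 19.2-fold to 51.7-fold (a rise of 30.9 points), and its mRNA stood at 6312 CPM in the control and 11698 CPM in the rapamycin library. MT-RNR2, the mitochondrial large ribosomal RNA, went from 1760-fold to 41.3-fold, a change of -46.4 points. CTBP2 went from 75.2-fold to 35.6-fold (-12.9 points) and SEC62 from 33.8-fold to 45.6-fold (12.9 points). ELF3, an epithelial ETS factor, went from 91.4-fold to 30.7-fold, or -20.8 points. An overlapping entry, AL691482.3, went from 130-fold to 52.2-fold.

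The genes that carried the peaks were then grouped by function, with 25 lists. The share of unmatched peaks over all peaks, 74.9% in the control and 70.1% in the rapamycin list, is the background for each. Some lists were kept more often than that. Of the transcription factors of the MYC, AP-1 and immediate early list, 28 genes carried 38 control and 38 rapamycin peaks, of which 16 control peaks (42.1%, 27.9 to 57.8) and 14 rapamycin peaks (36.8%, 23.4 to 52.7) were unmatched. IER3, an immediate early stress gene, kept a 3′UTR peak at 94.0-fold in the control and 19.8-fold with rapamycin. CEBPB, a bZIP factor of stress and inflammation, kept both of its peaks, at 11.8-fold and 2.45-fold in the coding sequence and at 18.9-fold and 10.5-fold in the 3′UTR. JUNB kept a 3′UTR peak at 17.0-fold and 60.2-fold. In mRNA, 26 of 50 measured genes of this list were at least 2-fold higher in the rapamycin library and 0 at least 2-fold lower, against 9.92% and 7.53% of all genes tested.

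Integrated stress response and amino acid genes had 7 of 18 control peaks (38.9%, 20.3 to 61.4) and 9 of 20 rapamycin peaks (45.0%, 25.8 to 65.8) unmatched. CEBPB and its kept peaks are counted in this list as well as in the immediate early one. SLC7A1, the cationic amino acid transporter CAT1, kept a 3′UTR peak at 175-fold in the control and 28.1-fold with rapamycin. Splicing and nuclear RNA processing genes had 6 of 17 control peaks (35.3%) and 8 of 19 rapamycin peaks (42.1%) unmatched. Overlapping entries of the noncoding RNAs MALAT1 and NEAT1 supplied several of the kept ones, with 4 and 2 entries in each list. The shares take such entries as separate peaks, and the share with each stretch counted once was not computed. HNRNPF, an RNA-binding splicing regulator, kept a coding sequence peak that went from 39.6-fold to 8.75-fold.

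Squamous and epithelial transcription factors had 10 of 21 control peaks (47.6%, 28.3 to 67.6) and 9 of 20 rapamycin peaks (45.0%, 25.8 to 65.8) unmatched. PITX1, a homeobox factor, kept 4 of its 5 control peaks, and its 3 rapamycin peaks were all kept. SOX2 kept its 3′UTR peak at 132-fold in the control and 18.1-fold with rapamycin. GRHL2, a factor that maintains the epithelial state, kept one at 51.4-fold and 14.7-fold. The GRHL2 peaks (chr8:101668586-101668856 in the control, chr8:101668436-101668646 with rapamycin) share only a minor part of their bases. The genes that carry peaks in these 4 lists had median mRNA levels of 65.1 CPM for the immediate early, 197 CPM for the stress response, 222 CPM for the splicing and 100 CPM for the squamous list, and the part of mRNA level in their kept share was not tested. Among the other lists with at least 10 peaks in each list, medians ran from 16.1 CPM for ZNF to 99.02 CPM for Polycomb genes. Some lists with fewer peaks had higher medians, such as 226 CPM for keratin genes.

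The m6A machinery itself carried peaks on 12 of 24 measured genes. In this list 6 of 14 control peaks (42.9%, 21.4 to 67.4) and 8 of 16 rapamycin peaks (28.0 to 72.0%) were unmatched. The control interval lies below the background of 74.9%, and the rapamycin interval includes that of 70.1%. RBM15, an adaptor of the writer complex, kept 2 coding sequence peaks, and 2 more of its peaks were listed only with rapamycin. A kept control peak of 431-fold (chr1:110340212-110340481) overlapped a rapamycin peak of 46.7-fold (chr1:110340002-110340242). These peaks share only a minor part of their bases, so their values are not a change over the same stretch. The other kept peak stood at 76.1-fold in the control and 69.7-fold with rapamycin. YTHDF2, a reader that promotes decay, kept a peak at 133-fold in the control and 126-fold with rapamycin, with mRNA at 90.5 and 73.8 CPM. IGF2BP2, a reader of the IMP family, kept a 3′UTR peak at 894-fold and 226-fold while its mRNA stood at 120 and 239 CPM. ALKBH5, an m6A demethylase, had a coding sequence peak of 33.7-fold in the control list alone.

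The mTOR and nutrient-sensing genes were mostly unmatched, with 18 of 21 control peaks (85.7%, 65.4 to 95.02) and 9 of 12 rapamycin peaks (75%, 46.8 to 91.1). Both intervals include the background shares. DDIT4, a stress-induced inhibitor of mTOR complex 1, kept a peak at 6.33-fold in the control and 4.74-fold with rapamycin while its mRNA stood at 346 and 1423 CPM. IRS1, the insulin receptor substrate, had 4 control and 2 rapamycin peaks, none of which overlapped. AKT2 had a 3′UTR peak of 6.81-fold in the control and a separate 3′UTR peak of 336-fold with rapamycin. MLST8, a subunit of both mTOR complexes, had a control-only peak of 59.6-fold.

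In the autophagy list 7 of 11 control peaks and 8 of 12 rapamycin peaks were unmatched. PIK3R4, the VPS15 subunit of the class III phosphoinositide 3-kinase, kept a coding sequence peak that went from 584-fold to 58.9-fold. ULK1, the kinase that starts autophagosome formation, kept a 3′UTR peak that went from 238-fold to 17.9-fold, with mRNA at 52.9 and 133 CPM. NRBF2, a subunit of the same kinase complex as PIK3R4, kept a peak that went from 2.43-fold to 29.5-fold and had a rapamycin-only 3′UTR peak of 399-fold. RB1CC1, the FIP200 scaffold of the ULK1 complex, had peaks of 5.47-fold in the control and 24.1-fold with rapamycin that did not overlap.

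ZNF genes carried the most peaks of any list, 161 in the control and 119 with rapamycin on 155 of 570 genes. Of these, 133 control peaks (82.6%, 76.0 to 87.7) and 89 rapamycin peaks (74.8%, 66.3 to 81.7) were unmatched, and the control share lay above the background. The ZNF genes with peaks had a median mRNA level of 16.1 CPM. ZNF131 kept a peak at 53-fold in the control and 34.8-fold with rapamycin, while ZNF48 had a control-only peak of 2030-fold.

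The remaining lists of at least 10 peaks each had intervals that included the background share of each list. For Polycomb and trithorax regulators 23 of 33 control and 26 of 35 rapamycin peaks were unmatched. KDM6B, a histone H3 lysine 27 demethylase, had a rapamycin-only peak of 689-fold and KMT2C, a histone methyltransferase, a control-only 3′UTR peak of 1070-fold. For ubiquitin ligases and deubiquitinases the counts were 22 of 31 and 15 of 23, for WNT, NOTCH, Hedgehog and Hippo genes 28 of 37 and 17 of 26, and for EMT, matrix, protease and integrin genes 21 of 34 and 20 of 34. JAG1, a Notch ligand, kept a peak at 487-fold in the control and 144-fold with rapamycin, and NOTCH2 kept a 3′UTR peak of 1860-fold in the control, over which rapamycin peaks of 20.7-fold and 11.8-fold lay. For receptor kinases and ligands 8 of 15 control and 17 of 24 rapamycin peaks were unmatched. EGFR, the epidermal growth factor receptor, kept a 3′UTR peak that went from 89.8-fold to 132-fold. VEGFA, an angiogenic growth factor, kept an exonic peak that went from 59.3-fold to 30.2-fold.

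For cell cycle genes 11 of 14 peaks were unmatched in each list. CDKN1A, the cyclin-dependent kinase inhibitor p21, had a rapamycin-only coding sequence peak of 721-fold, with mRNA at 14.8 CPM in the control and 48.3 CPM in the rapamycin library. DNA damage genes had 12 of 17 control and 10 of 15 rapamycin peaks unmatched, and BCL2-family and apoptosis genes 9 of 12 and 8 of 11. RNF168, a ubiquitin ligase of double-strand break repair, kept a peak that went from 62.5-fold to 196-fold. Cytokine and NF-kB genes had 7 of 13 control and 13 of 19 rapamycin peaks unmatched. TNFAIP2 kept a 3′UTR peak at 14.4-fold in the control and 11.4-fold with rapamycin, while its mRNA stood at 785 and 5197 CPM.

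The other lists had fewer peaks. Keratins and epidermal genes had 14 of 17 control and 6 of 9 rapamycin peaks unmatched, with PLEC, the cytolinker plectin, holding 12 of the 17 control peaks. TGF-beta and BMP genes had 5 of 6 and 11 of 12, sterol and fatty acid genes 8 of 9 and 5 of 6, and lysosome genes 4 of 4 and 3 of 3 unmatched. Translation initiation factors had 1 of 3 control and 4 of 6 rapamycin peaks unmatched, ribosomal proteins 1 of 1 and 3 of 3, and protocadherins 2 of 4 and 4 of 6. Replication-dependent histones had 0 control peaks and 4 rapamycin peaks, all unmatched, on genes with a median of 0.72 CPM.

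**Figure D3:**
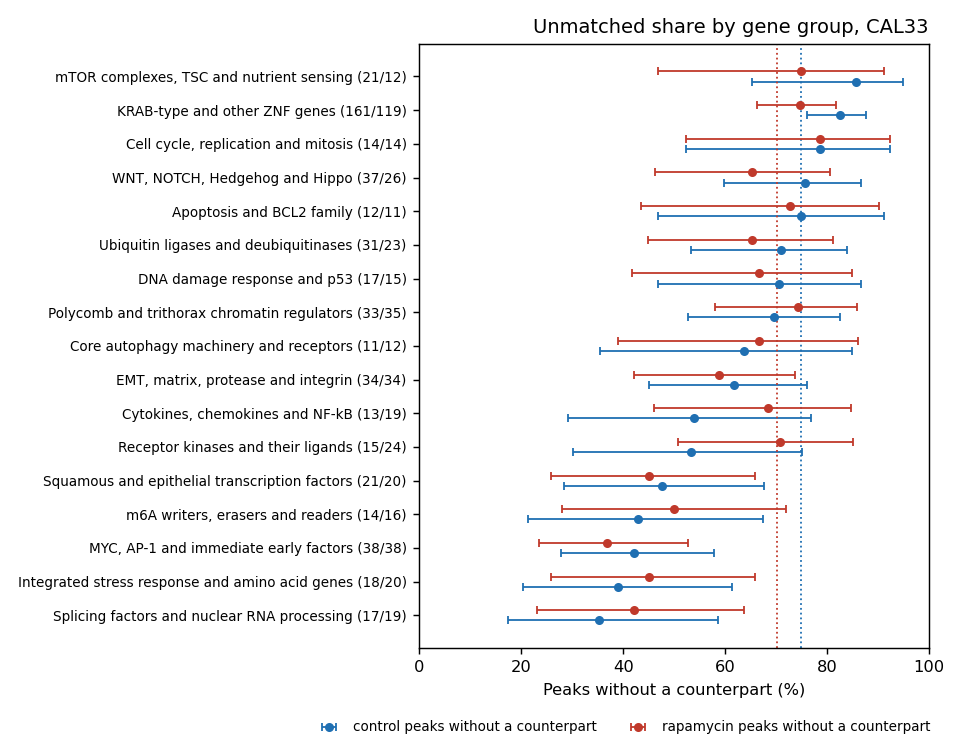
Share of peaks without a counterpart in the other CAL33 list (x axis, percent) for the gene lists with at least 10 peaks in each list, with the number of control and rapamycin peaks in parentheses. Points are shares with 95% Wilson intervals, blue for control and red for rapamycin peaks, and dotted lines mark the shares over all peaks (74.9% and 70.1%). For the splicing, stress response, immediate early and squamous lists both intervals lie wholly to the left of the line of their colour. These intervals count the overlapping MALAT1 and NEAT1 entries of the splicing list as separate peaks. The peaks of CEBPB are counted in both the immediate early and the stress response list. Points of some other lists also lie to the left. For the m6A list the control interval lies wholly to the left, and the rapamycin interval includes its line.

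Genes with peaks in only 1 list differed in mRNA level in the direction of that list. In the libraries numbered 2, 1402 of 14133 genes (9.92%) were at least 2-fold higher with rapamycin and 1064 (7.53%) at least 2-fold lower, on the log2(CPM + 1) scale. Of 1094 measured genes with peaks in the rapamycin list only, 150 (13.7%) were at least 2-fold higher and 60 (5.48%) lower, with a median log2 difference of 0.12. Of 1404 measured genes with peaks in the control list only, 90 (6.41%) were at least 2-fold higher and 169 (12.0%) lower, with a median of -0.26. The 740 measured genes with a kept peak had a median of -0.11, and 373 genes with peaks at separate places in both lists one of -0.09. The 10522 genes without a CAL33 peak had a median of 0.01. In the libraries numbered 1, which carry the number of HSC3, the medians were 0.03 for the genes of the rapamycin list only and -0.10 for those of the control list only. There the median was 0.02 over all genes tested. It was -0.07 for genes with a kept peak and -0.09 for those with peaks at separate places, so the classes differed little. With 1 library a group, these are differences between libraries, and the part of mRNA level in where a peak was listed was not tested.

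**Figure D4:**
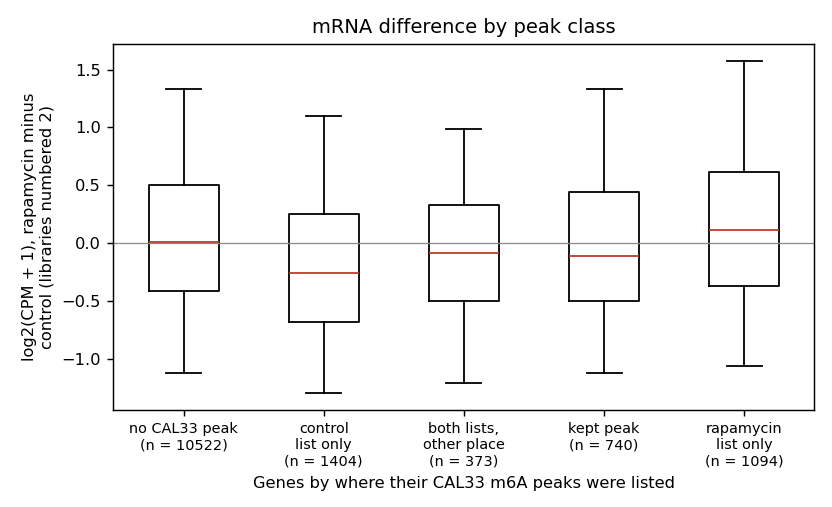
Difference in log2(CPM + 1) between the rapamycin and control RNA-seq libraries numbered 2 (y axis) for genes grouped by where their CAL33 peaks were listed (x axis). Boxes span the quartiles with the median in red, and whiskers reach the percentiles 5 and 95. The median is -0.26 for genes of the control list only and 0.12 for genes of the rapamycin list only.

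The HSC3 lists, which were not used to class the CAL33 peaks, were searched for the unmatched ones. Of the 2159 rapamycin-only peaks of CAL33, 415 (19.2%, 17.6 to 20.9) overlapped a peak of the HSC3 rapamycin list and 386 (17.9%, 16.3 to 19.6) one of the HSC3 control list. Of the 2716 control-only peaks, 561 (20.7%, 19.2 to 22.2) overlapped a peak of the HSC3 control list and 591 (21.8%, 20.2 to 23.4) one of the HSC3 rapamycin list. Whether these shares differ between the HSC3 lists was not tested. Among the rapamycin-only peaks, 258 were found in the HSC3 rapamycin list alone and 229 in the HSC3 control list alone. Among the control-only peaks, 331 were found in the HSC3 control list alone and 361 in the HSC3 rapamycin list alone. Kept peaks were found in HSC3 more often, at 51.4% (48.1 to 54.6) in its control and 52.7% (49.4 to 55.9) in its rapamycin list.

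**Figure D5:**
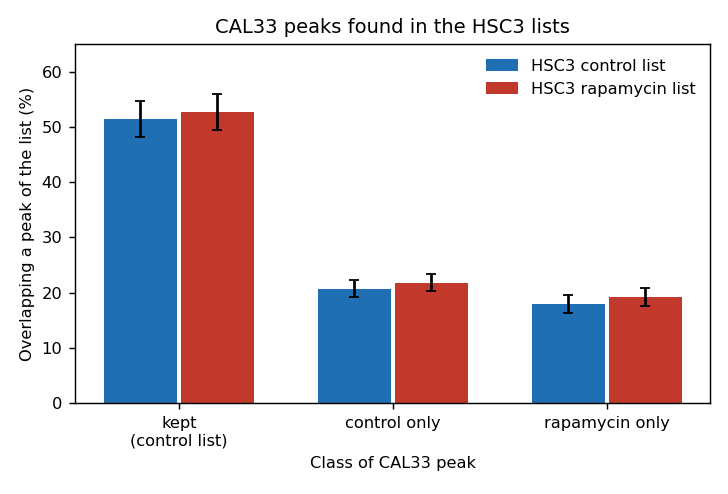
Share of CAL33 peaks (y axis, percent) that overlap a peak of the HSC3 control list (blue) or the HSC3 rapamycin list (red), for kept, control-only and rapamycin-only peaks. Bars show shares with 95% Wilson intervals. Kept peaks reach 51.4% and 52.7%, and the unmatched classes lie between 17.9% and 21.8%.

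The change in rank of kept peaks was also set beside HSC3. For 262 of the 883 kept pairs, both peaks had a partner in the matching HSC3 list and these partners overlapped each other. The CAL33 and HSC3 changes had the same sign in 126 of the 262 (48.1%), with a Spearman's rho of -0.02 as a description. Of 69 such pairs that rose by at least 25 points in CAL33, 15 rose and 18 fell by as much in HSC3. Of 62 that fell by at least 25 points in CAL33, 12 fell and 13 rose by as much in HSC3. Over all 262 pairs, 21.4% rose and 24.0% fell by at least 25 points in HSC3.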

How the data were processed

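MeRIP-seq of CAL33 and HSC3 comprised 8 libraries and RNA-seq 4. For every immunoprecipitated library and its input the authors deposited 1 separate list of peaks, with a fold enrichment (a ratio over input), a p-value given as its log10 and a false discovery rate for each peak. The peak caller is not given in the sources used here. The authors deposited raw HTSeq counts per gene for RNA-seq. The submitters' processing notes name cutadapt 2.5, HISAT2 2.1.0, featureCounts 1.6.3, HOMER 4.10.4 and the build hg38. How reads were filtered and scaled before calling sets which weak peaks are listed.

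Positions are counted from 1. Peaks were overlapped over exonic blocks in Python 3.11.15 with numpy 2.4.6, pandas 2.3.3 and scipy 1.17.1, and the overlap code was tested on simulated peaks. Kept peaks were paired 1 to 1, largest overlap first. Percentiles were taken within each whole list. Counts were divided by library totals (CPM), genes needed a mean of 1 CPM over the 4 libraries, and a pseudocount of 1 was added. TMM factors of edgeR 4.0.16 in R 4.3.3 served an alternative. Gene names followed the peak lists, and 99.4% of peak gene IDs were found in the table of gene names. RefSeq start sequences were of GRCh38.p14.

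Genes named were the 8 unmatched peaks of each class with the smallest p-values at a false discovery rate of at most 0.05, the 6 largest rises, the 6 largest falls and the 4 highest kept pairs under the same threshold, EIF4G1, and up to 4 genes a list with the smallest p-values. The members and the gene lists were chosen with earlier results of these data known. No test was run, because each group was 1 pair of libraries.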

Additional observations from a re-analysis of the deposited data

Results flagged for a closer look

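Some changes with rapamycin had opposite signs in the cell lines, and none of these differences was tested, since each line has 1 pair of libraries a treatment. Opposite signs were common, since 126 of 262 comparable pairs (48.1%) changed in the same direction. The number of peaks changed by -546 in CAL33 and by 22 in HSC3. The kept peak of CDV3 changed by -88.0 percentile points in CAL33, and its HSC3 counterpart by 4.03 points, from percentile 66.1 to 70.1, at 68.1-fold and 68.4-fold. The kept peak of EIF4G1 changed by 33.4 points in CAL33 and its HSC3 counterpart by -2.70 points, from percentile 6.23 (4.32-fold) to 3.53 (3.79-fold). The HSC3 rapamycin peak of EIF4G1 shared 1 bp with the CAL33 rapamycin peak and 31 bp with the HSC3 control peak, so it covers mostly other bases and the HSC3 value is not a change over the same stretch. TSPYL1 and CCM2, among the largest rises in CAL33, also rose in HSC3, by 17.0 and 11.1 points. TPBG and CREB1 changed by -0.41 and -0.21 points in CAL33 and by 1.63 and 9.38 points in HSC3.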

How the results depend on the processing

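No paired analysis was possible because each treatment of CAL33 is 1 pair of libraries and no result comes from a test. Over 22 results, 61 of 82 alternative values stayed within the 95% interval of the value reported, or within 1.5 times a count, including all 24 region shares. Kept shares are given as rapamycin, then control peaks. They became 25.5% and 21.5% with an overlap of 50% of the shorter peak, 32.7% and 27.7% with a gap of up to 100 bp, and 27.3% and 26.8% with equally many top-ranked peaks. Without peaks that shared fold and p-value with at least 4 others, a choice made after seeing the data, they became 35.1% and 27.0%. Under that choice 145 of 579 pairs rose and 140 fell by at least 25 points, because fewer pairs were left, and 19.25% of control-only peaks overlapped the HSC3 rapamycin list. With the 50% overlap, HSC3 control and rapamycin lists held 16.4% and 17.6% of the control-only and 14.9% and 16.7% of the rapamycin-only peaks. The shares of genes at least 2-fold higher and lower became 2.59% and 1.84% without the CPM filter, 12.6% and 9.0002% with a pseudocount of 0.25, and 6.06% and 2.70% in the libraries numbered 1. Removing entries that overlapped a peak of the opposite strand, also chosen after seeing the data, changed no kept share beyond its interval. Leaving out a replicate was not possible. The unknown depth of the peaks limits every share.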
